A study of Camellia sinensis with 12 samples.

Results

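The aquaporin genes of tea (Camellia sinensis) were followed through the withering of plucked shoots. Aquaporins are channel proteins, also called major intrinsic proteins, that let water and some small neutral solutes cross membranes. Members were the genes whose description in the deposited table contained "intrinsic protein" or "aquaporin" and whose counts summed to at least 120 over all libraries. Of 52332 genes in the table, 63 carried such a description and 38 of these reached the sum, namely 21 of 27 described as plasma membrane intrinsic proteins (PIP), 9 of 21 as tonoplast intrinsic proteins (TIP), 5 of 12 as NOD26-like intrinsic proteins (NIP), 1 of 1 as a small and basic intrinsic protein (SIP) and 2 of 2 as aquaporin-like superfamily proteins. The other 25 genes lay below the sum, and 15 of them had no count in any library. Types were taken from the descriptions alone, which are those of Arabidopsis proteins, and tea gene symbols were not assigned.

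In plants, PIPs sit in the plasma membrane and TIPs in the membrane of the vacuole, so the former set how readily water crosses the cell's border and the latter how readily it moves between cytosol and vacuole. NIPs carry small solutes such as boric acid beside or in place of water, and SIPs lie in the endoplasmic reticulum. Aquaporins open, close and are moved between membranes in addition to being made in varying amounts, and the RNA measured here shows only the amount of transcript.

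All shoots were of the cultivar Longjing43 (1 bud with 2 leaves) and were held at 25 °C in a climate chamber after plucking. The illumination is given as 0 lux in the labels, and the study's methods give another value. RNA was sequenced after withering for 0, 9, 15 and 24 h, with 3 libraries at each time. The labels do not say whether these 3 came from separate batches of leaves, so p-values measure the spread between libraries, which may be technical. Leaves kept from withering were not sampled at the later times, so withering cannot be told apart from the time since plucking or the hour of the day.

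The libraries held between 64931031 and 118261728 counts. Levels were measured in CPM, that is, read counts brought to a common library total with a correction by trimmed means (TMM). They are not divided by gene length, so shares of a summed level given for a gene or type are shares of reads and not of transcripts. The TMM factors ran from 1.21 to 1.24 at 0 h and from 0.758 to 0.793 at 24 h. Scaling by library size alone moved the median log2 fold change of all genes against 0 h by -0.20, -0.29 and -0.67 for the 3 later times, so fold changes stand relative to the other genes. Leaf mesophyll markers (photosystem, Rubisco and chlorophyll binding genes, 21 of 22 with counts, 18 of 21 lower at 24 h than at 0 h) summed to 10544-11538 CPM at 0 h and 1249-1608 CPM at 24 h. Vascular markers (39 of 48 with counts, 14 higher and 12 lower of 31 tested) summed to 1007-1175 CPM at 0 h and 1528-1838 CPM at 24 h. Guard cell markers (7 of 8 with counts, 2 higher and 5 lower of 7 tested) summed to 141-162 and 86.1-106 CPM. Most of the 0 h sum came from MSTRG.41802 (SCD1, mean 72.1 CPM) and MSTRG.35295 (SLAC1 homologue 3, 65.4 CPM). The list for dividing bud tissue (23 of 28, 4 higher and 9 lower of 20 tested) summed to 542-550 and 453-464 CPM. Nearly all of it came from KNOTTED-like genes, led at 0 h by MSTRG.25798 (191 CPM). The cyclin B gene with the highest level, MSTRG.956, had means of 5.06-9.64 CPM. In the root list (6 of 6), which rose from 221-232 to 400-434 CPM, nearly all counts came from genes described as RHD3, while the defining ROOT HAIR DEFECTIVE6 gene MSTRG.24446 had means of 0.0733-0.688 CPM. The part of these shifts in the aquaporin results was not tested, and in whole shoots fewer cells of a type cannot be told apart from less RNA per cell.

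Against 0 h, more aquaporin genes rose than fell, although at 24 h this turned when only library size was used for scaling. At 9 h, 21 of the 38 members had risen above 0 h and 5 had fallen (edgeR's quasi-likelihood test, Benjamini-Hochberg adjusted p under 0.05), against a background of 27.1% of the 26712 genes tested rising and 26.8% falling. At 15 h the counts were 17 higher and 10 lower, beside 30.3% and 29% of all genes. At 24 h they were 18 higher and 11 lower, beside 34.7% and 39.1% of all genes. All 38 members passed the filter on low counts. The median log2 fold change of the members was 0.77 at 9 h, 0.56 at 15 h and 0.46 at 24 h, and that of all genes was -0.02, -0.01 and -0.14. With library size alone as the scale, the members at 24 h were 13 higher and 18 lower with a median of -0.21. On that scale 5814 of all genes were higher and 14809 lower, with a median of -0.81. The direction of the family as a whole at 24 h thus turned with the scaling, while its median stayed above that of all genes.

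In all, 15 members were higher than at 0 h in each of the 3 comparisons, 4 were lower in each and 4 were called in none. No share over all genes was computed for these joint counts. MSTRG.36546, which reached the count minimum only through 0 h, is among the 4 lower and is counted as lower at each time above. MSTRG.268, which reached it only through the later times, is counted as higher at 24 h. From 9 to 15 h, 7 members rose and 11 fell, beside 19.8% and 18.1% of all genes. From 15 to 24 h, 10 rose and 13 fell, beside 25.9% and 30.8%. Under scaling by library size alone 6 members rose and 18 fell, and of all genes 4137 rose and 12263 fell. Of those called on that scale, 25% of members and 25.2% of all genes rose, so the members lay near the background. With DESeq2's size factors 12 rose and 11 fell over that step, so its balance turned with the scaling.

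The plasma membrane and tonoplast genes moved apart in their summed levels. The summed level of the 21 PIP genes was 1225, 1216 and 1339 CPM at 0 h, 4945, 5239 and 4635 CPM at 9 h, 5403, 5727 and 6760 CPM at 15 h and 6612, 5354 and 5847 CPM at 24 h. Every library from 9 h on lay above every 0 h library, and the 15 h and 24 h libraries overlapped. The TIP sum went the other way, with 1203, 1095 and 1175 CPM at 0 h, 1062, 1129 and 1069 CPM at 9 h, 492, 518 and 632 CPM at 15 h and 533, 463 and 502 CPM at 24 h. The 0 h and 9 h libraries overlapped and all later ones lay below both. PIP genes thus held 42.9% of the CPM of all members at 0 h and 84.4% at 24 h, and TIP genes 39.4% and 7.09%. Scaled by library size alone, the PIP sum at 24 h was still 296% of that at 0 h and the TIP sum 27.1%. The sums are given as a description without a test, and each is led by a few genes.

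**Figure D1:**
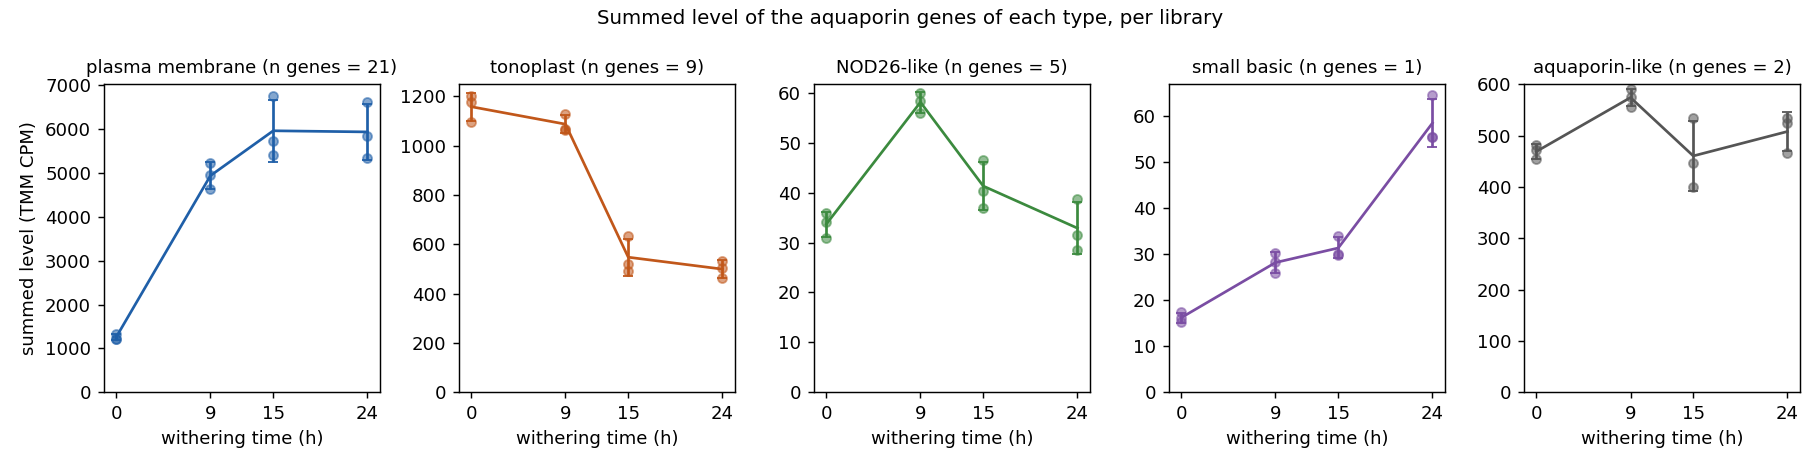
Summed level (TMM-scaled CPM) of the aquaporin genes of each type against withering time in hours, with 1 point per library and the line through the mean of 3 libraries (bars, SD). The plasma membrane sum went from 1260 to 5938 CPM between 0 and 24 h, the tonoplast sum from 1157 to 499 CPM and the small basic gene from 16.2 to 58.4 CPM, while the aquaporin-like sum ended at 508 CPM after 469 CPM at 0 h.

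**Figure D2:**
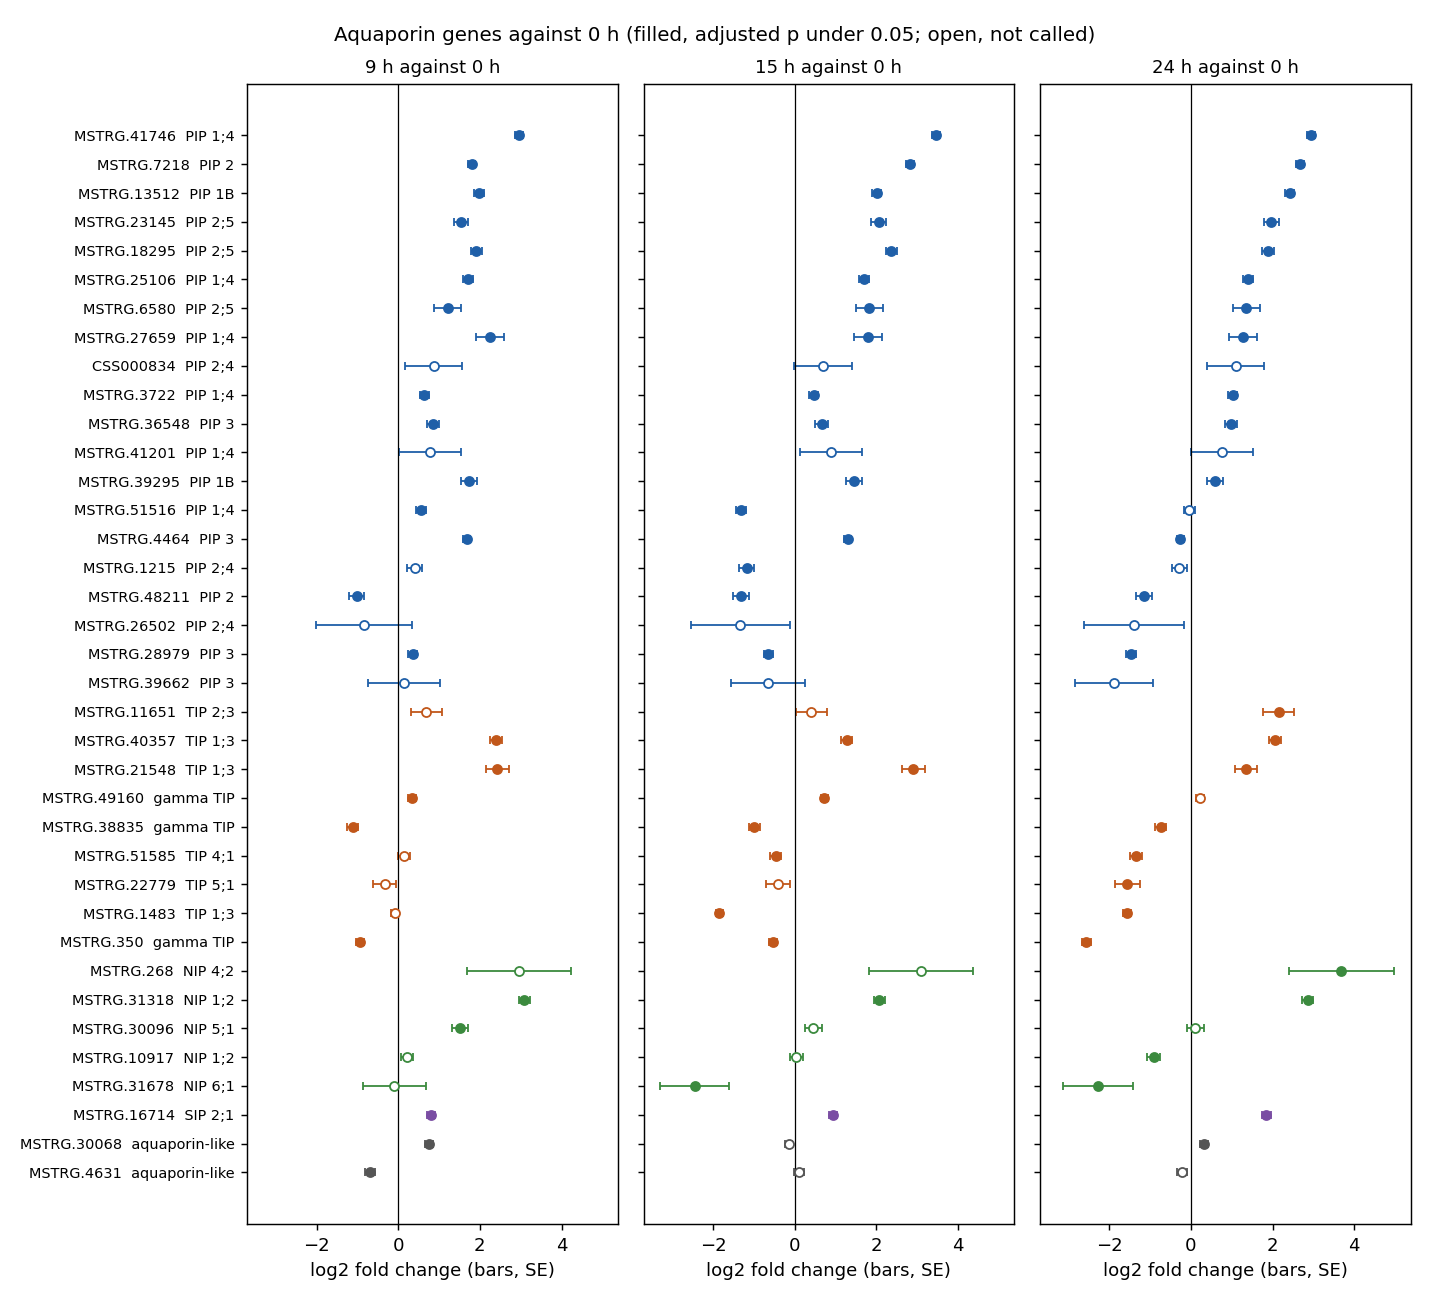
Log2 fold change of 37 aquaporin genes at 9, 15 and 24 h against 0 h (bars, SE, colours by type, filled points where the gene passed an adjusted p of 0.05 in edgeR's quasi-likelihood test). MSTRG.36546 is left out because it had no count at 15 and 24 h. The plasma membrane genes spread from 2.94 down to -1.89 at 24 h, and the tonoplast genes from 2.16 to -2.56.

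Against 0 h, 14 of the 21 PIP genes rose and 2 fell by 9 h, 12 rose and 5 fell by 15 h, and 11 rose and 4 fell by 24 h. The share that rose was thus 66.7%, 57.1% and 52.4%, beside 27.1%, 30.3% and 34.7% of all genes. Their median log2 fold change was 0.87, 0.90 and 0.98. At 24 h it stayed above 0 under scaling by library size alone (0.31, with 7 higher and 7 lower, beside -0.81 for all genes). PIP1 and PIP2 genes were told apart by the number in the description, and the 5 genes described as PIP3 carry neither number. In Arabidopsis and maize, PIP2 proteins conduct water well and help PIP1 proteins to reach the plasma membrane. Among the 8 PIP1 genes, 7 were higher at 9 h, 6 at 15 h and 6 at 24 h, and 1 was lower, at 15 h only. Among the 8 genes described as PIP2, 4 were higher at each time, and 1, 2 and 1 were lower. The 5 genes described as PIP3 went from 3 higher and 1 lower at 9 h to 1 higher and 3 lower at 24 h. They were counted apart by that name alone. Whether they belong with the PIP1 or PIP2 genes was not tested, so the counts of those groups may be incomplete.

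MSTRG.13512 (described as PIP1B, Scaffold1951, 533890 to 537788, plus strand) held 48.0% of the summed PIP level at 0 h and 54.4% after 24 h. Its level was 584, 566 and 664 CPM at 0 h, 2349, 2627 and 2167 CPM at 9 h, 2170, 2357 and 2783 CPM at 15 h, and 3621, 2930 and 3146 CPM at 24 h. The 9 h and 15 h libraries overlapped, and those of 24 h lay above all others. The log2 fold change against 0 h was 1.98, 2.01 and 2.42 at the 3 later times (SE 0.12 each, adjusted p = 1.33e-08 at 9 h), and the last step added 0.41 (SE 0.11, adjusted p = 0.0076), or 0.035 (adjusted p = 0.776) with library size alone.

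MSTRG.41746 (PIP1;4, Scaffold6188, 233552 to 237124, minus strand) showed the largest rise among the PIP genes in each comparison with 0 h. It was at 103, 103 and 115 CPM at 0 h, 832, 848 and 823 CPM at 9 h, 1098, 1135 and 1311 CPM at 15 h, and 894, 747 and 825 CPM at 24 h. Every 15 h library lay above every other library, and the 9 h and 24 h libraries overlapped. The log2 fold change against 0 h was 2.96 (SE 0.09) at 9 h, 3.47 (SE 0.10) at 15 h and 2.94 (SE 0.09) at 24 h, and the drop after 15 h was -0.52 (SE 0.09, adjusted p = 0.000222).

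The PIP2 genes with the highest counts were higher again at 15 h than at 9 h. MSTRG.7218 (PIP2, Scaffold1490, 616095 to 620238, plus strand) had 139, 127 and 129 CPM at 0 h, 458, 473 and 439 CPM at 9 h, 832, 888 and 1091 CPM at 15 h, and 881, 799 and 837 CPM at 24 h. It rose by 1.80 (log2, SE 0.10) to 9 h and by a further 1.04 (SE 0.10, adjusted p = 2.45e-06) to 15 h. The 15 h and 24 h libraries overlapped, but with library size alone the gene fell over that step (-0.53, adjusted p = 0.000107). MSTRG.18295 (PIP2;5, Scaffold237, 1334448 to 1337528, minus strand) had 149, 160 and 167 CPM at 0 h, 627, 609 and 552 CPM at 9 h, 745, 791 and 930 CPM at 15 h, and 720, 465 and 582 CPM at 24 h. Its log2 fold change against 0 h was 1.91, 2.37 and 1.89 (SE 0.14 each). The step from 9 to 15 h was 0.46 (adjusted p = 0.0158) and was lost without replicate 3 at 15 h (0.34, adjusted p = 0.0925) or replicate 3 at 9 h (0.41, adjusted p = 0.0644), and the following fall was -0.48 (adjusted p = 0.0084).

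MSTRG.25106, with the same description as MSTRG.41746, went from a mean of 110 ± 6.47 CPM (SD, n = 3) at 0 h to 361 ± 13.6 CPM at 9 h and 288 ± 54.2 CPM at 24 h. Its fall after 15 h (-0.31, adjusted p = 0.0367) was not called without replicate 2 or 3 at either of those times (-0.19 to -0.34) or with DESeq2's size factors (-0.23, adjusted p = 0.115). MSTRG.39295 (PIP1B) rose from 42.2, 43.6 and 44.4 CPM to 140, 148 and 142 CPM at 9 h, and at 24 h its libraries were spread over 40.8, 83.7 and 71.4 CPM. The lowest of these lay below all 0 h libraries, the 24 h rise of 0.59 (adjusted p = 0.0134) was not called without replicate 2 (0.36, adjusted p = 0.0856) or replicate 3 (0.51, adjusted p = 0.0514) at 24 h, and it turned to -0.073 when only library size was used.

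Among the PIP3 genes, MSTRG.4464 had 14.1, 14.7 and 13.7 CPM at 0 h, 44.2, 46.1 and 46.1 CPM at 9 h, 35.0, 36.1 and 33.8 CPM at 15 h, and 11.7, 11.1 and 12.9 CPM at 24 h. The 4 times did not overlap, and the gene went from 1.68 (log2, SE 0.08) above 0 h at 9 h to -0.26 (SE 0.08, adjusted p = 0.0134) at 24 h. That last call was lost with DESeq2's size factors (-0.18, adjusted p = 0.0648) and with only the 2 times fitted (-0.26, adjusted p = 0.0705). MSTRG.28979 stood at 21.0, 20.7 and 19.8 CPM at 0 h, 28.1, 25.9 and 24.8 CPM at 9 h, 12.8, 12.9 and 13.8 CPM at 15 h, and 8.73, 6.52 and 6.90 CPM at 24 h. These times did not overlap either: after a rise of 0.36 (adjusted p = 0.0158), which was lost without replicate 3 at 0 h (0.33, adjusted p = 0.0554) or replicate 1 at 9 h (0.31, adjusted p = 0.0684) or with library size alone (0.15, adjusted p = 0.241), the level fell to -1.47 (SE 0.12) at 24 h.

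A pair of PIP genes fell from 9 to 15 h and rose afterwards. MSTRG.51516, again described like MSTRG.41746, had 11.95, 12.5 and 14.2 CPM at 0 h, 19.2, 19.4 and 17.9 CPM at 9 h, 4.63, 5.33 and 5.64 CPM at 15 h, and 10.6, 13.96 and 13.1 CPM at 24 h. The 15 h libraries were the lowest of all, and the 24 h libraries overlapped those of 0 h (log2 fold change -0.04, SE 0.13), although the gene was called lower at 24 h when only library size was used (-0.70, adjusted p = 0.000195). MSTRG.1215 (PIP2;4) had 19.1, 17.8 and 17.4 CPM at 0 h, 27.3, 24.0 and 20.4 CPM at 9 h, 8.94, 7.50 and 7.68 CPM at 15 h, and 19.9, 11.5 and 13.1 CPM at 24 h. It too was lowest at 15 h (-1.17 against 0 h, SE 0.18, adjusted p = 9.76e-05), and without the high replicate 1 its 24 h level was called lower than at 0 h (-0.56, adjusted p = 0.00291), as it was with library size alone (-0.95, adjusted p = 0.000281).

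**Figure D3:**
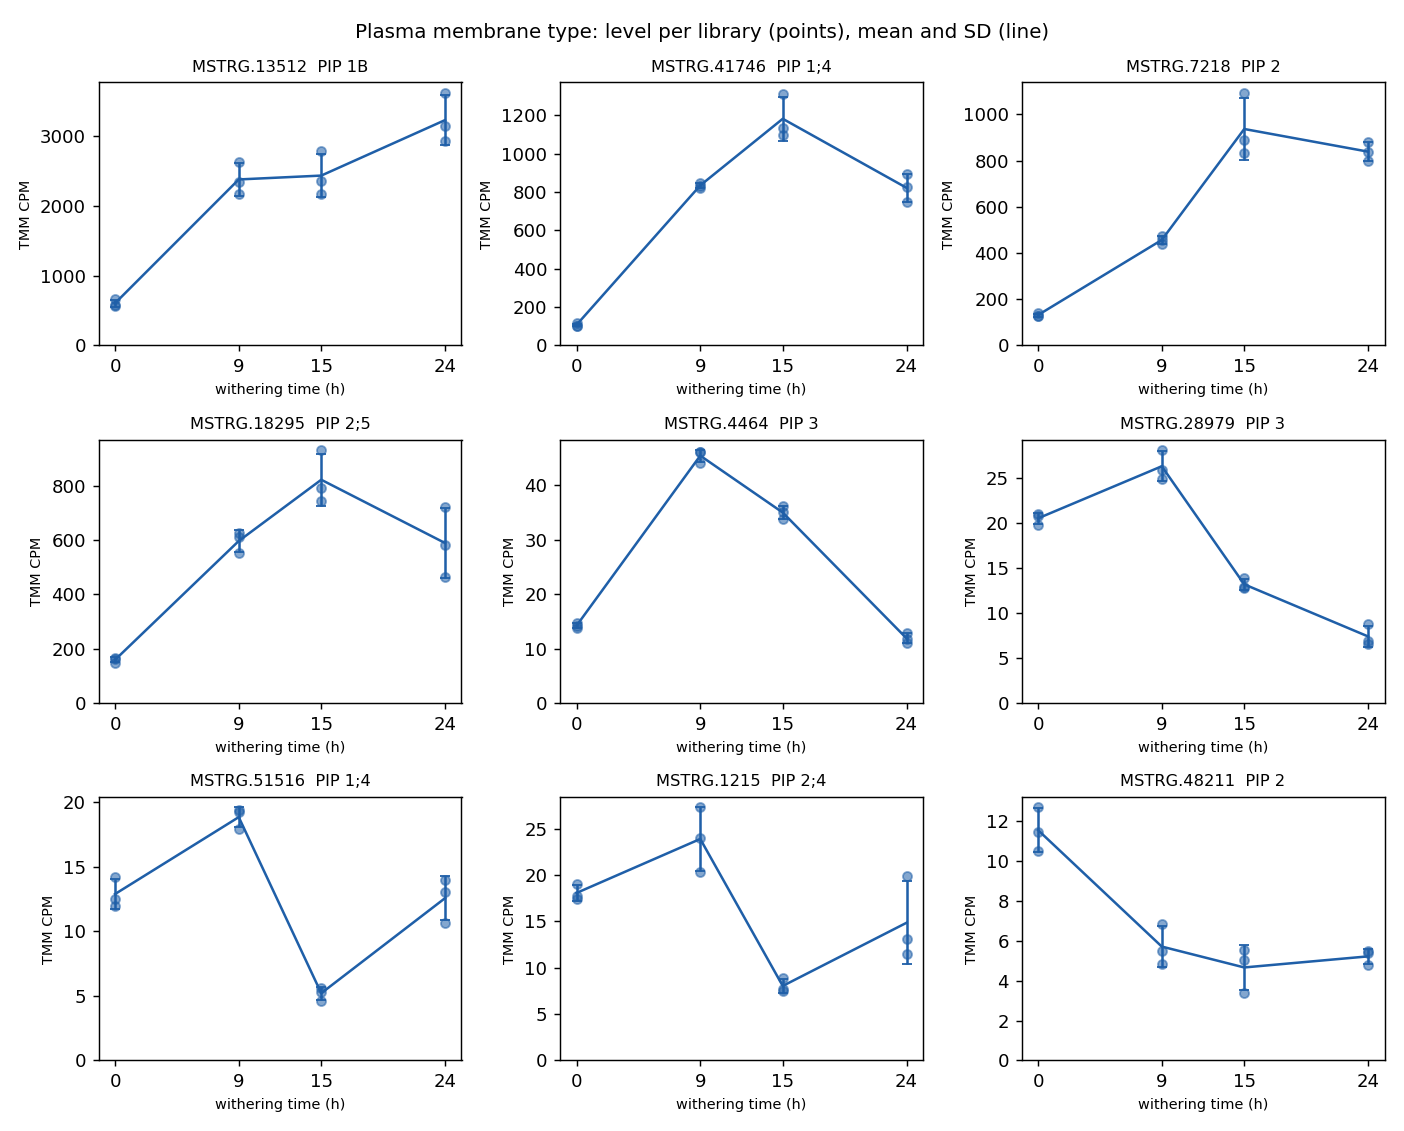
Level (TMM-scaled CPM) of 9 plasma membrane aquaporin genes against withering time in hours, with 1 point per library and the line through the mean of 3 libraries (bars, SD). MSTRG.41746 peaked at 15 h (mean 1181 CPM), MSTRG.4464 at 9 h (45.5 CPM), and MSTRG.51516 and MSTRG.1215 were lowest at 15 h (5.20 and 8.04 CPM).

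Among the PIP genes, 2 were lower at all later times. MSTRG.48211 (PIP2) had 11.4, 10.5 and 12.7 CPM at 0 h, 6.82, 5.48 and 4.81 CPM at 9 h, 3.37, 5.05 and 5.55 CPM at 15 h, and 4.77, 5.50 and 5.37 CPM at 24 h. All later libraries lay below those of 0 h, with a log2 fold change of -1.01, -1.31 and -1.15 (SE 0.19 each, adjusted p between 5.23e-05 and 0.000477). MSTRG.36546 (PIP3, Scaffold480, 2465636 to 2469055, plus strand) had 88, 160 and 118 counts at 0 h, 4, 0 and 0 at 9 h, and none at 15 or 24 h. Against a floor of 3 counts over a group this was at least 121-fold lower at 15 h and at least 85.5-fold lower at 24 h. All but 4 of its 370 counts lay at 0 h, so it reached the count minimum only through that time, its fall was fixed by that choice, and its place among the members called lower is no result. Its neighbour MSTRG.36548, with the same description and strand, lies 42120 bases further along the scaffold with 1 gene between them, and it moved from 3.63 CPM to 6.53, 5.75 and 7.17 CPM (log2 fold change 0.85, 0.66 and 0.98). Its last 2 values were not called when only library size was used (0.37 and 0.31, adjusted p = 0.0502 and 0.0756). MSTRG.36546 gave 27.3% ± 6.69 (SD, n = 3) of the counts of the pair at 0 h. Reads shared by near-identical copies could have been split between such genes, which was not tested.

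The remaining 8 PIP genes include MSTRG.3722, a PIP1 gene, which was higher at every time (mean 12.9 CPM before withering and 26.3 CPM at 24 h, log2 fold change 1.03, SE 0.11). MSTRG.27659, a PIP1 gene, and MSTRG.23145 and MSTRG.6580, both described like MSTRG.18295, were also higher at 9, 15 and 24 h, by 1.22 to 2.25 on the log2 scale. With library size alone the 24 h calls of MSTRG.27659 (0.61, adjusted p = 0.133) and MSTRG.6580 (0.69, adjusted p = 0.0687) and the 15 h call of MSTRG.3722 (0.17, adjusted p = 0.181) were lost. For MSTRG.23145 the step from 9 to 15 h (0.52, adjusted p = 0.03) was lost without each of the 6 libraries of those times in turn (adjusted p from 0.0624 to 0.104). The 4 members called in no comparison with 0 h were MSTRG.41201 (PIP1), MSTRG.39662 (PIP3), MSTRG.26502 (PIP2) and CSS000834 (PIP2). MSTRG.41201 was split within groups, with 0.495, 11.3 and 9.72 CPM at 9 h and 10.2, 2.11 and 10.8 CPM at 15 h, and without replicate 1 at 9 h it was called higher there (1.34, adjusted p = 0.0334). With only the 2 times fitted, MSTRG.41201 was called higher at 24 h (0.75, adjusted p = 0.00471). MSTRG.39662 was scattered within 9 h as well (3.54, 0.181 and 3.54 CPM), and it was called lower at 24 h without replicate 2 at 9 h or replicate 1 at 15 h (-1.90, adjusted p = 0.034 and 0.0392). The same call came with only the 2 times fitted (-1.89, adjusted p = 0.0029) and with library size alone (-2.56, adjusted p = 0.0282). MSTRG.23145, MSTRG.6580, MSTRG.41201 and MSTRG.39662 span 640 to 969 bases.

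The tonoplast genes did not move as a group. Against 0 h, 3 of the 9 TIP genes rose at each time, while 2 fell by 9 h, 4 by 15 h and 5 by 24 h. The 33.3% of TIP genes that rose lay near the 27.1%, 30.3% and 34.7% of all genes. The share that fell was 22.2%, 44.4% and 55.6%, beside 26.8%, 29% and 39.1% of all genes. Their median log2 fold change was 0.15, -0.41 and -0.74. Under scaling by library size alone it was -0.06, -0.71 and -1.41, which turns its direction at 9 h. The median of all genes was then -0.22, -0.30 and -0.81. Gamma TIP is the name of TIP1;1, a water channel of the vacuolar membrane, and in Arabidopsis TIP1;3 and TIP5;1 are known from pollen.

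MSTRG.1483 (TIP1;3, Scaffold1085, 1932016 to 1936254, minus strand) held 68.1% of the summed TIP level at 0 h and 40.3% after 15 h. It had 832, 733 and 801 CPM at 0 h, 718, 771 and 736 CPM at 9 h, 195, 213 and 254 CPM at 15 h, and 272, 249 and 275 CPM at 24 h. The change to 9 h was within the spread between libraries (log2 fold change -0.09, SE 0.09, adjusted p = 0.464, groups overlapping) but was called with library size alone (-0.29, adjusted p = 0.00865), and the level then dropped by -1.75 (SE 0.10, adjusted p = 2.86e-08) to 15 h. The 15 h and 24 h libraries overlapped. A later rise of 0.27 (adjusted p = 0.0286) was lost without replicate 1 or 2 at 15 h or replicate 1 or 3 at 24 h (0.18 to 0.25) and was -0.11 when only library size was used.

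Another gene with the same description moved the opposite way. MSTRG.40357 (TIP1;3, Scaffold5803, 453800 to 455991, plus strand) had 26.2, 23.5 and 26.9 CPM at 0 h, 129, 143 and 129 CPM at 9 h, 56.9, 56.7 and 72.2 CPM at 15 h, and 132, 91.8 and 96.7 CPM at 24 h. Every later library exceeded those of 0 h, with log2 fold changes of 2.39, 1.28 and 2.07 (SE 0.14 each), and the dip at 15 h was -1.11 (adjusted p = 3.14e-05) followed by 0.79 (adjusted p = 0.000279). Of the counts of the pair, MSTRG.1483 held 96.9% ± 0.0971 (SD, n = 3) at 0 h and 71.5% ± 3.59 at 24 h. The third TIP1;3 gene, MSTRG.21548, had 0.264, 0.395 and 0.306 CPM at 0 h, 1.62, 2.07 and 1.55 CPM at 9 h, 2.01, 2.37 and 2.94 CPM at 15 h, and 0.815, 0.791 and 0.871 CPM at 24 h. It was above 0 h in every later library and fell after 15 h by -1.56 (SE 0.26, adjusted p = 0.000226).

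The 3 gamma TIP genes also differed from each other. MSTRG.350 (Scaffold1026, 1149612 to 1151878, plus strand) had 239, 223 and 231 CPM at 0 h, 124, 119 and 119 CPM at 9 h, 145, 150 and 184 CPM at 15 h, and 34.6, 43.4 and 39.3 CPM at 24 h. None of the 4 times overlapped: the gene fell, partly recovered (0.41, adjusted p = 0.00607) and fell again by -2.03 (SE 0.10, adjusted p = 5.13e-09), to -2.56 (SE 0.11) against 0 h. MSTRG.38835 was lower at all later times (mean 62.7 CPM at first and 29.0, 31.6 and 37.6 CPM after, log2 fold change -1.11, -0.99 and -0.74, SE 0.14 each). MSTRG.49160 had 35.9, 38.9 and 38.4 CPM at 0 h, 49.3, 49.2 and 44.3 CPM at 9 h, 58.2, 58.1 and 71.6 CPM at 15 h, and 46.0, 41.1 and 44.2 CPM at 24 h. Its 15 h libraries were the highest (0.73 against 0 h, SE 0.09). At 24 h the difference was 0.21 (adjusted p = 0.0561, but 0.0349 without replicate 3 at 15 h and 0.0481 without replicate 2 at 24 h), 0.29 with DESeq2's size factors (adjusted p = 0.0139) and -0.45 with library size alone. The rise at 9 h (0.33) was not called with library size alone (0.13, adjusted p = 0.2).

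**Figure D4:**
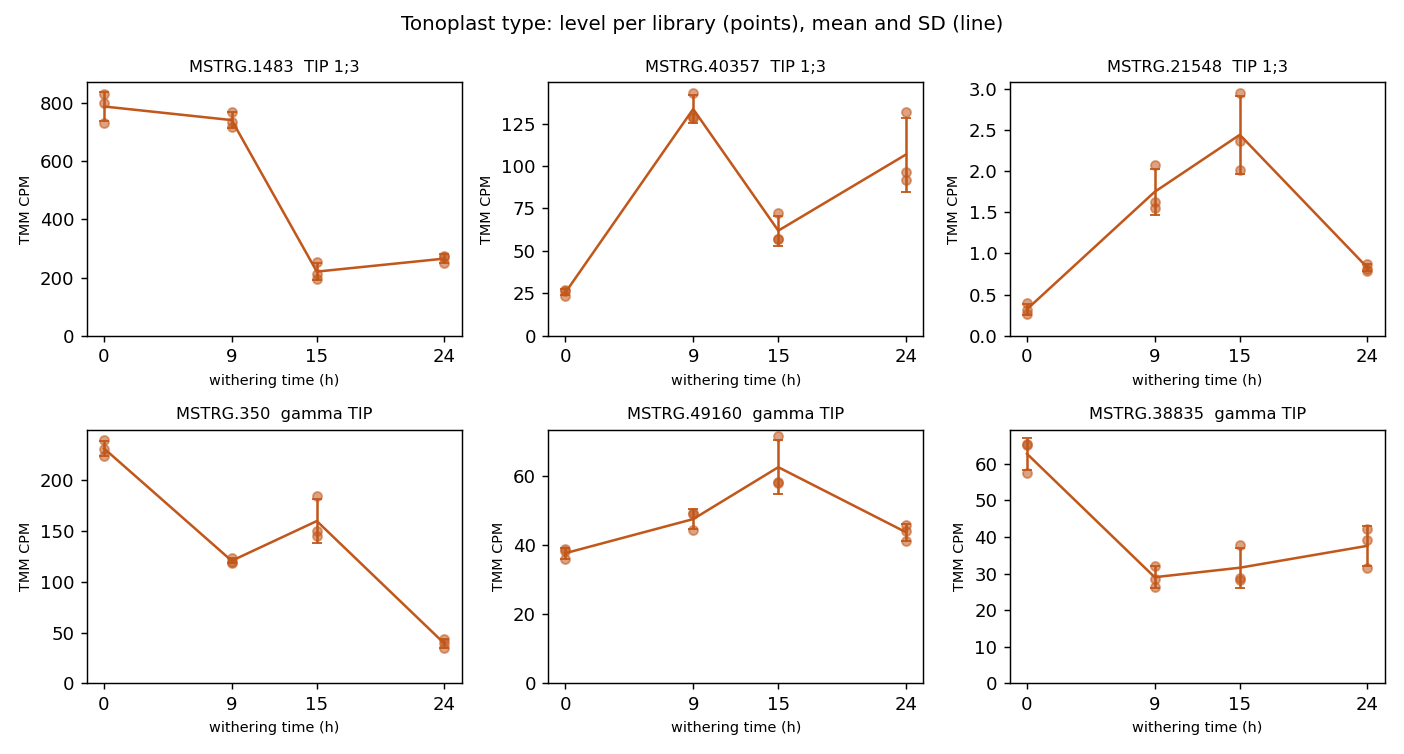
Level (TMM-scaled CPM) of the 3 TIP1;3 genes and the 3 gamma TIP genes against withering time in hours, with 1 point per library and the line through the mean of 3 libraries (bars, SD). MSTRG.1483 dropped from 742 to 220 CPM between 9 and 15 h, MSTRG.40357 rose from 25.5 to 134 CPM by 9 h, and MSTRG.350 ended at 39.1 CPM after 231 CPM at 0 h.

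The other TIP genes had low counts. MSTRG.51585 (TIP4;1) had 10.4, 9.02 and 9.49 CPM at 0 h, 10.8, 10.6 and 10.6 CPM at 9 h, 5.83, 7.29 and 7.83 CPM at 15 h, and 3.57, 3.35 and 4.48 CPM at 24 h. The 24 h libraries were the lowest (-1.34 against 0 h, SE 0.15), and its 15 h decrease (-0.46, adjusted p = 0.0131) was lost without replicate 1 at 0 h (-0.41, adjusted p = 0.0518) or at 15 h (-0.35, adjusted p = 0.0627). MSTRG.22779 (TIP5;1, 579 bases long) had 1.72, 1.69 and 1.61 CPM at 0 h, 1.20, 1.27 and 1.52 CPM at 9 h, 0.861, 1.42 and 1.51 CPM at 15 h, and 0.435, 0.546 and 0.728 CPM at 24 h. All of the 24 h values lay below the earlier ones (log2 fold change -1.55 against 0 h, SE 0.30, adjusted p = 0.000423). MSTRG.11651 (TIP2;3) went from 0.302 ± 0.0583 CPM (SD, n = 3) at 0 h to 1.35 ± 0.0657 CPM at 24 h (2.16, SE 0.38), most of it gained after 15 h (1.75, adjusted p = 0.00142). Of the 12 TIP genes below the count minimum, 10 had no count at all, and all but 1 of those are described as TIP5;1. A further gene, MSTRG.21612, is described as a delta tonoplast integral protein and is therefore missed by the rule. Its mean level was 14.0, 19.0, 13.7 and 32.8 CPM, which at 24 h was 1.23 above 0 h on the log2 scale (SE 0.16).

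Of the 5 NIP genes, 2 rose and none fell by 9 h, 1 rose and 1 fell by 15 h, and 2 rose and 2 fell by 24 h, each against 0 h. Of all genes, 27.1% rose and 26.8% fell by 9 h, 30.3% and 29% by 15 h, and 34.7% and 39.1% by 24 h. The 40% of NIP genes in each direction at 24 h lay near those shares. From 9 to 15 h, 3 of the NIP genes fell (60%, beside 18.1% of all genes). Their median log2 fold change of 0.11 at 24 h was -0.56 under scaling by library size alone, beside -0.81 for all genes. MSTRG.31318 (NIP1;2, Scaffold3940, 448743 to 457629, plus strand) had 2.04, 2.33 and 1.73 CPM at 0 h, 16.9, 18.5 and 16.5 CPM at 9 h, 8.56, 8.75 and 8.45 CPM at 15 h, and 16.0, 13.0 and 15.5 CPM at 24 h. Each later library lay above those of 0 h and the 15 h libraries lay below those of 9 and 24 h. The changes against 0 h were 3.08 (SE 0.14, adjusted p = 7.86e-10), 2.07 and 2.86 on the log2 scale, and the steps after 9 h were -1.01 and 0.79.

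The second NIP1;2 gene, MSTRG.10917, had 25.6, 30.1 and 29.2 CPM at 0 h, 31.9, 34.3 and 32.3 CPM at 9 h, 25.4, 28.1 and 33.7 CPM at 15 h, and 19.5, 12.6 and 13.0 CPM at 24 h. It was called only at 24 h, where all libraries were below the others (-0.91 against 0 h, SE 0.16, adjusted p = 0.000169). MSTRG.30096 (NIP5;1, in Arabidopsis a boric acid channel of roots) had 2.11, 2.69 and 2.60 CPM at 0 h, 8.49, 6.36 and 6.29 CPM at 9 h, 2.65, 3.31 and 4.24 CPM at 15 h, and 2.98, 2.52 and 2.47 CPM at 24 h. The 9 h libraries stood above all others (1.51, SE 0.21, adjusted p = 3.59e-05). At 15 h the difference from 0 h was 0.46 (adjusted p = 0.0683) and passed the test without replicate 1 at 15 h (0.61, adjusted p = 0.0256). At 24 h the difference was 0.11 (adjusted p = 0.648), or -0.56 when only library size was used. MSTRG.31678 (NIP6;1, in Arabidopsis a boric acid channel of nodes) lay between 0.547 and 1.23 CPM at 0 and 9 h and was at or below 0.276 CPM in every later library. The decreases at 15 h (-2.44, adjusted p = 0.0235) and 24 h (-2.28, adjusted p = 0.0274) were both lost without replicate 1 at 0 h (adjusted p = 0.0742 and 0.0818), that at 24 h also without replicate 3 at 24 h (adjusted p = 0.0815), and the step from 9 to 15 h (-2.35, adjusted p = 0.0419) without each of 7 libraries in turn. MSTRG.268 (NIP4;2) sat at the count minimum with 120 counts over all libraries, and its call at 24 h (adjusted p = 0.0201) was lost without replicate 2 or 3 at 0 h or replicate 3 at 24 h (adjusted p from 0.0703 to 0.11). Of its counts 4 lay at 0 h, so it reached the minimum only through the later times. A rise was thus fixed by that choice, and its place among the members and NIP genes called higher is no result.

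The only SIP gene was higher at every later time than at 0 h. MSTRG.16714 (SIP2;1, Scaffold2231, 517962 to 521701, minus strand) had 15.1, 16.1 and 17.3 CPM at 0 h, 25.8, 30.3 and 28.3 CPM at 9 h, 30.1, 29.9 and 33.9 CPM at 15 h, and 64.5, 55.4 and 55.3 CPM at 24 h. The 9 h and 15 h libraries overlapped, and those of 24 h lay well above both. Against 0 h the log2 fold change was 0.80, 0.95 and 1.85 (SE 0.10 each, adjusted p = 1.97e-09 at 24 h), and it was 1.18 at 24 h when only library size was used.

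The 2 aquaporin-like genes moved in opposite directions by 9 h. MSTRG.30068 (Scaffold3740, 686871 to 690891, plus strand) had 250, 270 and 275 CPM at 0 h, 474, 417 and 453 CPM at 9 h, 217, 234 and 267 CPM at 15 h, and 347, 301 and 350 CPM at 24 h. It was high at 9 h (0.76, SE 0.09), back among the 0 h values at 15 h (-0.15, adjusted p = 0.19, or -0.25 and 0.0374 without replicate 3 at 15 h, and -0.44 and 0.000284 with library size alone) and again above them at 24 h (0.33, adjusted p = 0.00646), although at 24 h the sign was negative when only library size was used (-0.34). MSTRG.4631 had 222, 183 and 207 CPM at 0 h, 117, 140 and 122 CPM at 9 h, 184, 213 and 267 CPM at 15 h, and 187, 165 and 175 CPM at 24 h. Its 9 h libraries were below all others (-0.69, SE 0.13, adjusted p = 0.000434), and the other times overlapped. With library size alone MSTRG.4631 was called lower at 24 h than at 0 h (-0.88, adjusted p = 1.2e-05). The decrease after 15 h (-0.33, adjusted p = 0.0384) was lost without replicate 2 or 3 at either time (-0.17 to -0.36) and with DESeq2's size factors (-0.25, adjusted p = 0.122). MSTRG.30068 lies 4562 bases from CSS000834, a PIP2 gene on the opposite strand with 192 counts in all, and no gene lies between them.

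**Figure D5:**
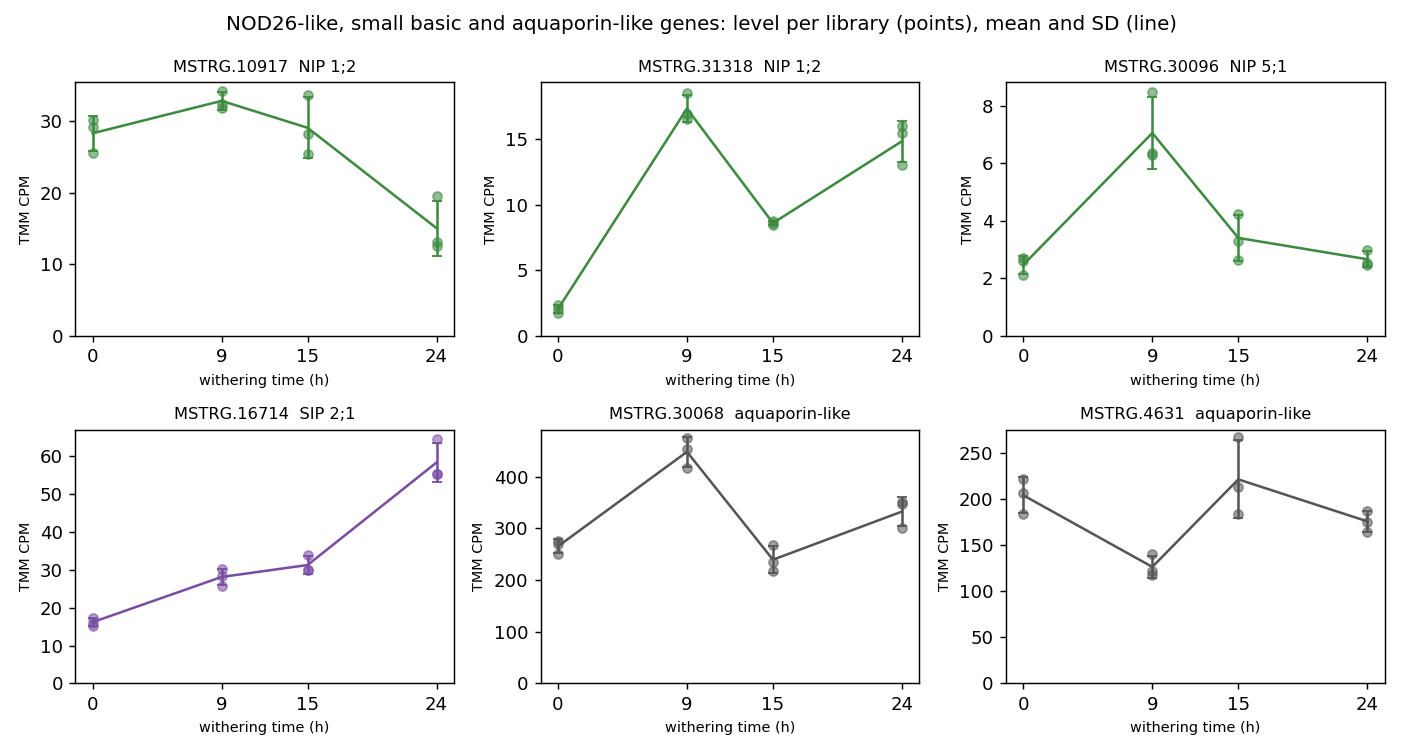
Level (TMM-scaled CPM) of 3 NOD26-like genes, the small basic gene MSTRG.16714 and the 2 aquaporin-like genes against withering time in hours, with 1 point per library and the line through the mean of 3 libraries (bars, SD). MSTRG.31318 went from 2.04 to 17.3 CPM by 9 h, MSTRG.16714 reached 58.4 CPM at 24 h, and at 9 h MSTRG.30068 was at its highest (448 CPM) while MSTRG.4631 was at its lowest (126 CPM).

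Transcripts of proteins that work beside aquaporins were counted in the same fit. Of 40 genes for proton pumps, which acidify the apoplast and the vacuole, 15 rose and 7 fell by 9 h, while 21 rose and 10 fell by 24 h, against 27.1% and 26.8% of all genes at 9 h and 34.7% and 39.1% at 24 h. With library size alone 11 rose and 12 fell by 9 h and 12 rose and 16 fell by 24 h. Of all genes, 5641 rose and 9228 fell by 9 h on that scale, and 5814 rose and 14809 fell by 24 h. The balance of the pumps thus turned at both times, while that of all genes leaned further to falls. MSTRG.20638, described as H(+)-ATPase 5, went from 8.95 to 71.1 CPM at 24 h (2.99, SE 0.12), and MSTRG.30066, a G subunit of the vacuolar pump, from 4.78 to 19.0 CPM (1.99, SE 0.13). Of 62 genes for ion channels and potassium transporters, 23 rose and 17 fell by 9 h, while 24 rose and 23 fell by 24 h, near the shares of all genes at 24 h. With library size alone 17 rose and 17 fell by 9 h and 19 rose and 31 fell by 24 h. MSTRG.24197, a potassium transporter, fell from 49.2 to 1.99 CPM at 9 h (-4.63, SE 0.18), and MSTRG.33527, chloride channel C of the vacuole, rose from 46.4 to 322 CPM at 24 h (2.79, SE 0.07).

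Of 6 genes described as HCO3- transporter or boron transporters, exporters that act with NIP boric acid channels in Arabidopsis, 3 were higher at 9 h, 3 at 15 h and 2 at 24 h, and none was lower in these comparisons (with library size alone 1 was lower at 9 h and 2 at 24 h). Of all genes 27.1%, 30.3% and 34.7% rose, so the 2 of 6 at 24 h lay near that share, and 26.8%, 29% and 39.1% fell. MSTRG.34757 was at 8.38 CPM at 0 h and peaked at 32.5 CPM at 15 h (1.96, SE 0.15), and MSTRG.9181 reached 18.5 CPM at 24 h after 5.81 CPM at 0 h (1.67, SE 0.12). Of 14 genes for syntaxins of the SYP12 group and VAMP7-type vesicle proteins, some of which carry PIPs to the plasma membrane in Arabidopsis, 8 rose and 1 fell by 9 h, while 8 rose and none fell by 24 h. The shares of all genes were 27.1% and 26.8% at 9 h, and 34.7% and 39.1% at 24 h. With library size alone 7 rose and 1 fell by 9 h, and 6 rose and 1 fell by 24 h. MSTRG.47039 (syntaxin of plants 121) went from 73.9 to 329 CPM at 24 h with a wide spread between libraries (2.16, SE 0.63, adjusted p = 0.00724), and MSTRG.181 (VAMP726) from 41.1 to 159 CPM (1.95, SE 0.11). The median log2 fold change at 24 h was 0.50 for the pumps, 0.05 for the ion channels, 0.20 for the boron transporters and 1.0 for the vesicle proteins, beside -0.14 for all genes. With library size alone these medians were -0.17, -0.61, -0.47 and 0.33, beside -0.81 for all genes. The direction of the first 3 lists at 24 h thus turned with the scaling, while each median stayed above that of all genes.

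Just inside the count minimum were MSTRG.268 with 120 counts, CSS000834 with 192 and MSTRG.26502 with 246, and just outside it were CSS033564 (PIP2A) with 94, MSTRG.26978 (PIP3) with 86 and CSS052297 (NIP4;1) with 56.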

How the data were processed

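The table the authors deposited holds raw read counts (whole numbers), a column for each library. Tools listed by the submitters in their processing notes are HISAT2 2.0.5, StringTie 1.3.1, Trimmomatic and FastQC 0.10.1. Which genome build, strand setting and counter were used is not given in the sources used, so antisense reads and reads of near-identical copies could not be separated. Columns were tied to libraries by time and replicate number.

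Counts were tested with the quasi-likelihood test of edgeR 4.0.16 (R 4.3.3) after TMM scaling and its default expression filter, in 1 model of all 12 libraries with withering time as factor, and p-values were Benjamini-Hochberg adjusted over 26712 genes. The SE is the size of the log2 fold change divided by the square root of F. The procedure was tested on simulated counts. No sample was dropped, and no libraries agreed within sampling noise.

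Members, gene lists and tests were chosen with earlier results of these data known. Values in every library are given for the 3 members of each type with the highest mean CPM, the 6 largest rises and falls at a mean of at least 1 CPM, and members that turned between successive steps; from the related lists at most 2 genes are named. Others were chosen after their values were seen. Alternatives were DESeq2 1.42.0, other size factors, other filters, other thresholds, the 2 times compared alone, a replicate block and leaving out each library. None of the 38 identifiers matched the RefSeq gene table used here, and no sequence is shown.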

Additional observations from a re-analysis of the deposited data

How the results depend on the processing

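Over 190 results (38 members in 5 comparisons), 3604 alternatives were run. Of these, 3492 kept the call, 62 lost it, 45 gained it and 5 changed sign with a call in at least 1 of the fits compared. A result called in neither fit was taken as kept whatever its sign. The 5 sign changes with a call came with library size alone: MSTRG.1483 from 15 to 24 h (-0.11), and at 24 h against 0 h MSTRG.30068 (-0.34), MSTRG.30096 (-0.56), MSTRG.49160 (-0.45) and MSTRG.39295 (-0.073). Under that scale 18 members were lower at 24 h than at 0 h and 6 rose from 15 to 24 h, beside 14809 and 4137 of all genes. Summed levels at 0, 9 and 24 h became 1541, 5246 and 4568 CPM for PIP, 1416, 1154 and 384 CPM for TIP, 41.2, 61.8 and 25.3 CPM for NIP, and 574, 610 and 391 CPM for the aquaporin-like genes; the SIP gene was at 19.8 and 45.0 CPM at 0 and 24 h. With a fold of at least 2 required as well, 3 members were lower at 9 h and 6 at 15 h against 0 h, 1 rose and 7 fell from 9 to 15 h, and 2 rose and 4 fell from 15 to 24 h. Leaving out a library moved no count of members by over 1.5 times.

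Replicate numbers did not pair the samples: deviations of samples with the same number correlated at -0.079 to 0.061 over 18 pairs and those with different numbers at -0.098 to 0.097 over 36. With a replicate block, 22 members rose and 5 fell by 9 h, 17 rose and 10 fell by 15 h, and 18 rose and 11 fell by 24 h, each against 0 h; 7 rose and 10 fell from 9 to 15 h, and 10 rose and 12 fell from 15 to 24 h.

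With 3 libraries a time and at most 46 counts in any library, MSTRG.268, CSS000834 and MSTRG.26502 allow only large changes to pass, so a missing call there does not show that a level held.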
